A study of Homo sapiens with 8 samples.

Results

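The genes described here are 8 imprinted genes, chosen by name: H19, IGF2, DLK1, MEG3, PEG3, GRB10, MEST and PLAGL1. All 8 were looked up, each at a start given to the nearest kb on GRCh37, in lists of peaks of the histone mark H3K27me3. The cells were MOLM14, an established human line of acute myeloid leukemia with an activating internal tandem duplication in the receptor kinase FLT3. They had been given AC220 (quizartinib, a FLT3 kinase inhibitor) or its solvent DMSO for 24 h, and Drosophila S2 cells had been mixed in before lysis in both treatments. There were 2 immunoprecipitated libraries with AC220 (AC220 1 and AC220 2) and 2 with DMSO (DMSO 1 and DMSO 2). Every library had its own list of broad peaks. The labels do not say that the libraries of a treatment came from separate cultures, so p-values here cover the spread among the libraries at hand, which could be technical only.

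An imprinted gene is expressed mainly from the chromosome inherited from one parent. The choice is carried by DNA methylation that the egg or the sperm laid down at a control region, and several imprinted genes often share such a region. H3K27me3 is written by Polycomb repressive complex 2 and marks silent or lowly expressed genes. At some imprinted loci it has been found on the allele that is not methylated. A peak list holds no alleles, so a peak at these genes may come from the maternal chromosome, the paternal chromosome or both.

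The measure was the covered share, the percent of bases within 5 kb or within 25 kb of a start that lay in any peak of a library. On chromosomes 1 to 22 and X, 60716 adjoining tiles of 50 kb and 303618 tiles of 10 kb gave the background. AC220 1 held 104566 peaks over 192 Mb and AC220 2 held 139642 over 497 Mb, against 104980 over 232 Mb in DMSO 1 and 117556 over 591 Mb in DMSO 2. Lists numbered 2 were therefore much longer than lists numbered 1 in both treatments, and values are compared within a number. The lists hold no read counts, so the depth behind each peak is unknown.

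The 8 genes fell into 3 kinds. H19, IGF2, DLK1 and MEG3 lay in covered chromatin: each was covered over at least 20% within 25 kb in every library, as were 11.1% of 50 kb tiles. No gene of the 8 was covered over at least 50% within 25 kb in every library, and 2.1% of tiles were. PEG3 and GRB10 had no peak over the start and few covered bases within 5 kb. At GRB10 all peaks within 25 kb lay upstream, and at PEG3 all but 1 short peak, in AC220 2, lay downstream. MEST and PLAGL1 had no covered base within 25 kb in any library, which was true of 41.5% of tiles. Within 5 kb only IGF2 and DLK1 were covered over at least 50% in all 4 libraries, against 3.39% of 10 kb tiles; at least 20% in all 4 was also met by these 2 genes alone, and by 9.77% of tiles. MEST and PLAGL1 again held no peak, as did 58.8% of those tiles. The median covered share of the 8 genes within 25 kb was 18.8% in AC220 1 and 39.3% in AC220 2, against 22.6% in DMSO 1 and 37.7% in DMSO 2. Over all 50 kb tiles the median was 0% in AC220 1 and 1.65% in AC220 2, against 0% in DMSO 1 and 2.98% in DMSO 2.

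**Figure D1:**
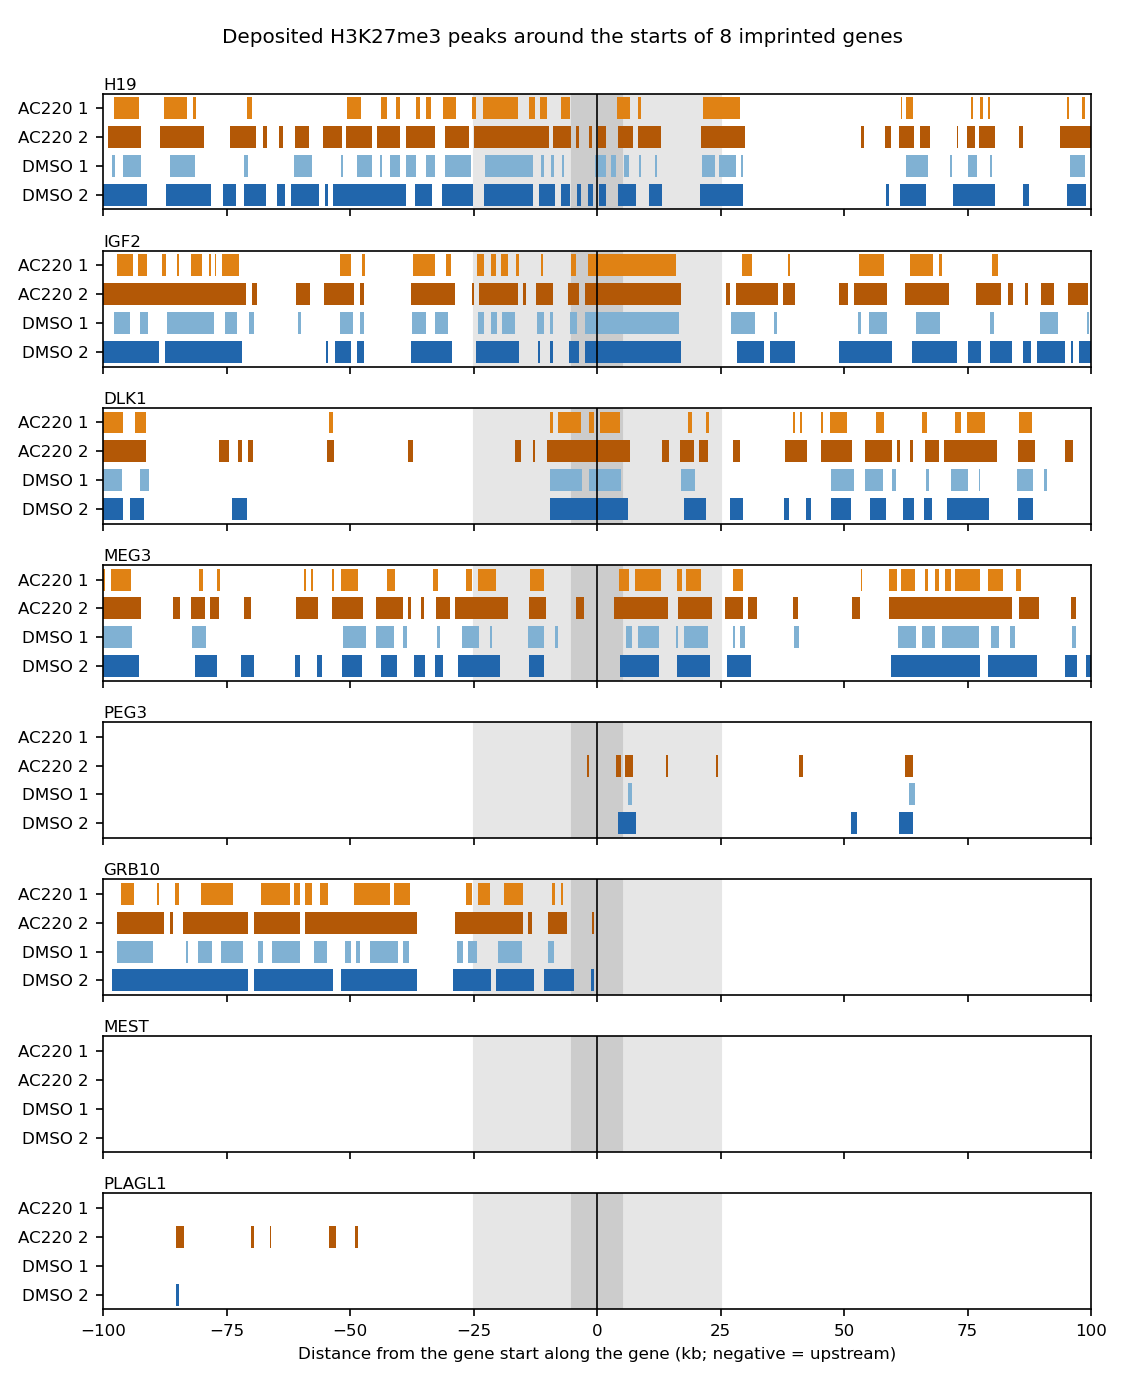
Peaks around the 8 starts, one panel per gene, with the distance from the start in kb along the direction of transcription on the horizontal axis and the libraries AC220 1, AC220 2, DMSO 1 and DMSO 2 from top to bottom. Bars are peaks, and the dark and light bands are the windows of 5 kb and 25 kb either side; IGF2 and DLK1 are covered around the start, GRB10 has peaks on its upstream side and none on its downstream side, and MEST is empty throughout.

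**Figure D2:**
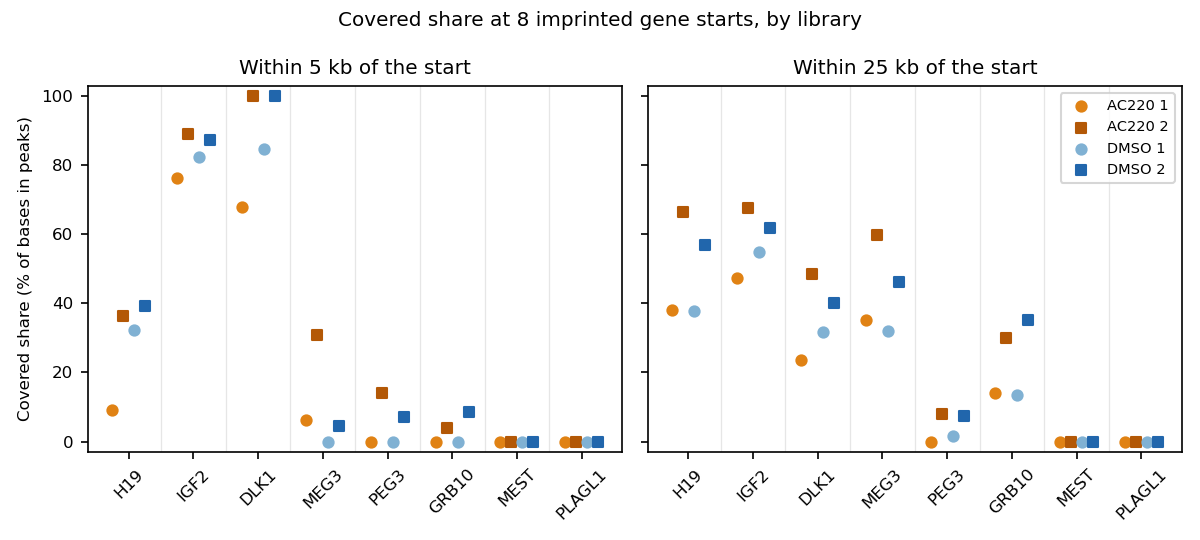
Covered share in percent of each of the 8 genes within 5 kb (left) and 25 kb (right), with 1 point per library and AC220 placed before DMSO. Within 5 kb the MEG3 points with AC220 (6.10% and 31.0%) lie above both with DMSO (0% and 4.37%), and at every other gene the treatments overlap or tie.

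IGF2 encodes an insulin-like growth factor that is expressed from the paternal allele in most fetal tissues. It had the peak with the highest -log10 q near the 8 genes in every library. Its start, in band 11p15.5, lay inside a single wide peak in all 4 libraries. That peak spanned chr11:2154000-2171820 in AC220 1 and chr11:2152955-2172516 in AC220 2, against chr11:2153486-2172384 in DMSO 1 and chr11:2152992-2172489 in DMSO 2. It was 17.8 kb and 19.6 kb wide with AC220, against 18.9 kb and 19.5 kb with DMSO. The ends were thus nearly the same in all 4 libraries, although the lists differ much in length. In width it stood above 99.7% of the peaks of AC220 1 and 97.7% of those of AC220 2, against 99.5% for DMSO 1 and 95.6% for DMSO 2. The -log10 q that the authors deposited for it was 2.45 in AC220 1 and 6.60 in AC220 2, against 3.34 in DMSO 1 and 5.92 in DMSO 2. Since the gene is transcribed toward lower coordinates, the peak reached from just upstream of the start across most of a gene of 20.4 kb in RefSeq. The 5 kb downstream of the start were covered over 100% in every library. Within 5 kb either side (chr11:2165001-2175000) the covered share was 76.4% in AC220 1 and 89.1% in AC220 2, against 82.3% in DMSO 1 and 87.3% in DMSO 2. Treatments overlapped, and AC220 minus DMSO was -5.92 points in number 1 and 1.86 points in number 2. Within 25 kb it was 47.3% and 67.7% with AC220, against 55.0% and 61.9% with DMSO, and the direction again differed between numbers.

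H19 lies 151 kb from IGF2 in the same band and gives a long noncoding RNA from the maternal allele. The window around its start was less covered than that of IGF2. Within 5 kb (chr11:2014001-2024000) the covered share was 9.09% in AC220 1 and 36.4% in AC220 2, against 32.3% in DMSO 1 and 39.1% in DMSO 2. These shares were still above those of most 10 kb tiles. The tiles with a lower share made up 83.5% in AC220 1 and 80.7% in AC220 2, against 90.5% in DMSO 1 and 78.0% in DMSO 2. AC220 was lower in both numbers, at differences of -23.2 points in number 1 and -2.68 points in number 2, but the treatments overlapped. Only DMSO 1 had a peak over the start used here (chr11:2017264-2019529), and no base within 5 kb of it was covered in all 4 libraries. RefSeq lists 1 promoter for H19, at another start. Upstream of the start used, AC220 2 and DMSO 2 had short peaks (chr11:2022653-2023315 and chr11:2022197-2023072) that the lists numbered 1 lacked. Which library has a peak over the start may thus depend on the start chosen. Shares at the other start were not computed. Within 25 kb the upstream side, toward IGF2, was the more covered one in every library. It was covered over 48.9% and 79.4% with AC220, against 46.4% and 67.1% with DMSO. The downstream side was covered over 27.1% and 53.7% with AC220, against 29.2% and 46.9% with DMSO. Within 5 kb the order was reversed. The downstream side held 18.2% and 48.7% with AC220, against 53.96% and 41.7% with DMSO. The upstream side held 0% and 24.2% with AC220, against 10.6% and 36.5% with DMSO. From 25 kb to 5 kb upstream the share was 61.1% and 93.3% with AC220, against 55.3% and 74.8% with DMSO. Most of that came from a block that AC220 2 lists as 1 peak of 15.1 kb (chr11:2028812-2043888). Within 25 kb the share was 38.01% in AC220 1 and 66.6% in AC220 2, against 37.8% in DMSO 1 and 57.0% in DMSO 2. There AC220 was higher in both numbers, by 0.23 and 9.58 points, so the direction at H19 turned with the size of the window. Over the whole 151 kb between both starts the share was 34.1% and 66.1% with AC220, against 41.1% and 68.6% with DMSO (exact permutation test, two-sided p = 0.667).

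DLK1, a transmembrane relative of the Notch ligands, is expressed from the paternal allele. Its start in band 14q32.2 lay inside a peak in AC220 2, DMSO 1 and DMSO 2. In AC220 2 this was 1 peak of 16.8 kb (chr14:101182899-101199678), against 1 peak of 15.6 kb in DMSO 2 (chr14:101183535-101199157). The same stretch was broken into 4 peaks in AC220 1, against 2 in DMSO 1. In AC220 1 the start fell in a gap between peaks that ended 0.59 kb upstream and began 0.54 kb downstream. Within 5 kb (chr14:101188001-101198000) the covered share was 67.9% in AC220 1 and 100% in AC220 2, against 84.8% in DMSO 1 and 100% in DMSO 2. Treatments tied in number 2, and the difference was -16.95 points in number 1. Within 25 kb it was 23.5% and 48.6% with AC220, against 31.7% and 40.2% with DMSO, with 6 and 6 peaks against 3 and 2. AC220 2 had several short peaks beyond the main one that DMSO 2 lacked or joined.

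MEG3, a maternally expressed long noncoding RNA of the same imprinted cluster as DLK1, was the only one of the 8 genes at which the treatments did not overlap. Within 5 kb of its start (chr14:101287001-101297000) the covered share was 6.10% in AC220 1 and 31.0% in AC220 2, against 0% in DMSO 1 and 4.37% in DMSO 2. Both values with AC220 were above both with DMSO. A lack of overlap, in either direction, held for 1 of the 8 genes within 5 kb, beside 1.84% of 10 kb tiles, and for 0 of 8 within 25 kb, beside 1.16% of 50 kb tiles. The mean was 18.5% ± 17.6 with AC220 and 2.18% ± 3.09 with DMSO (SD, n = 2 each). The difference of 16.3 points had p = 0.333 by the exact permutation test (two-sided), the smallest that 2 against 2 allows. It came mostly from number 2, at 26.6 points, with 6.10 points in number 1. It was 10.5 points with the start taken 1 kb lower (exact permutation p = 1), 7.86 points over peaks with a -log10 q of at least 2, 3.05 points with all lists trimmed to the shortest, and 3.92 points without AC220 2. The start itself lay in no peak: the uncovered gap around it was 15.2 kb in AC220 1 and 6.15 kb in AC220 2, against 13.8 kb in DMSO 1 and 15.3 kb in DMSO 2. Gaps at least as long held most of the genome, 82.9% in AC220 1 and 76.1% in AC220 2, against 81.8% in DMSO 1 and 67.3% in DMSO 2. In AC220 2 the gap was shortened by a peak of 1.52 kb upstream of the start (chr14:101287751-101289275), with a -log10 q of 1.38, above that of 29.7% of the peaks in that list. On the other side the first peak inside the gene began 4.39 kb and 3.43 kb after the start with AC220, against 5.84 kb and 4.56 kb with DMSO. That downstream block spanned chr14:101295430-101306419 in AC220 2, against chr14:101296564-101304610 in DMSO 2. From 5 kb to 25 kb downstream the share was 53.4% and 82.0% with AC220, against 53.8% and 71.9% with DMSO. Within 25 kb of the start it was 35.3% in AC220 1 and 59.9% in AC220 2, against 31.9% in DMSO 1 and 46.2% in DMSO 2, higher with AC220 by 3.37 and 13.8 points. The treatments overlapped there (exact permutation p = 0.667).

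Between the DLK1 and MEG3 starts, 99 kb apart, the covered share was 20.5% and 50.6% with AC220, against 25.4% and 38.1% with DMSO. AC220 minus DMSO was -4.85 points in number 1 and 12.5 points in number 2, with an exact permutation p of 1.

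**Figure D3:**
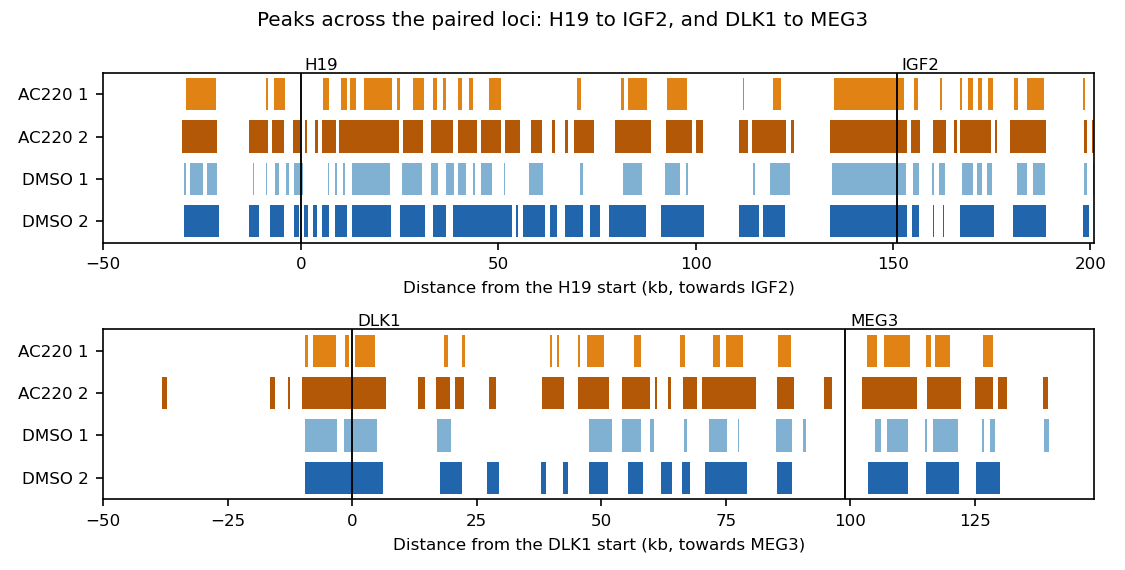
Peaks (bars) from H19 to IGF2 (top) and from DLK1 to MEG3 (bottom), against distance from the first start in kb, with the libraries AC220 1, AC220 2, DMSO 1 and DMSO 2 from top to bottom and the starts as vertical lines. The wide peak over the IGF2 start stands in all 4 libraries, and the MEG3 start sits in a gap between peaks in all 4.

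GRB10 encodes an adaptor protein that dampens signalling by the insulin and insulin-like growth factor receptors, and its imprinting differs between tissues. Its start in band 7p12.1 lay in no peak, and the nearby peaks were all upstream. The nearest ended 6.90 kb and 0.727 kb before the start with AC220, against 8.69 kb and 0.661 kb with DMSO. From 25 kb to 5 kb upstream the covered share was 35.2% and 73.0% with AC220, against 34.0% and 83.5% with DMSO. Further out, from 100 kb to 25 kb upstream, it was 42.8% and 78.5% with AC220, against 48.6% and 84.0% with DMSO. Downstream no base was covered within 100 kb in any library. The first peak on that side began 212 kb and 208 kb after the start with AC220, against 208 kb and 208 kb with DMSO. RefSeq gives GRB10 a length of 203 kb, so the bare stretch was about as long as the gene. Stretches of this length were common. Uncovered gaps at least as long as the one around the start held 55.7% of the genome in AC220 1 and 39.4% in AC220 2, against 53.9% in DMSO 1 and 37.8% in DMSO 2. Within 5 kb (chr7:50856001-50866000) the share was 0% and 3.92% with AC220, against 0% and 8.56% with DMSO. Within 25 kb it was 14.1% and 30.0% with AC220, against 13.6% and 35.1% with DMSO. The treatments overlapped in both windows.

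PEG3, a paternally expressed zinc finger gene in band 19q13.43, had few and short peaks. Within 5 kb (chr19:57347001-57357000) the covered share was 0% in AC220 1 and 14.1% in AC220 2, against 0% in DMSO 1 and 6.99% in DMSO 2. Within 25 kb it was 0% and 7.88% with AC220, against 1.71% and 7.31% with DMSO. All libraries but AC220 1 had a peak between 4 kb and 8 kb downstream of the start, inside the gene, of 1.57 kb in AC220 2 (chr19:57344696-57346270), against 0.856 kb in DMSO 1 (chr19:57344885-57345740) and 3.66 kb in DMSO 2 (chr19:57344043-57347699). The lists numbered 2 were higher than those numbered 1, and the treatments overlapped.

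MEST encodes a protein of the hydrolase fold and PLAGL1 a zinc finger protein, both expressed from the paternal allele at their imprinted promoters. RefSeq lists 5 promoters for each of these genes. Whether the starts used here are the imprinted promoters was not tested. MEST (7q32.2) lay in an uncovered stretch of 413 kb in AC220 1 and 399 kb in AC220 2, against 391 kb in DMSO 1 and 391 kb in DMSO 2. Such stretches were common: uncovered gaps at least as long held 43.2% of the genome in AC220 1 and 26.7% in AC220 2, against 42.4% in DMSO 1 and 26.2% in DMSO 2. At PLAGL1 (6q24.2) the gap was 1484 kb and 188 kb with AC220, against 986 kb and 742 kb with DMSO. It was shortest in AC220 2. Uncovered gaps at least as long held 19.5% of the genome in AC220 1 and 41.3% in AC220 2, against 22.9% in DMSO 1 and 15.3% in DMSO 2. Of the stretch from 100 kb to 25 kb upstream, 6.04% was covered in AC220 2 and 0.745% in DMSO 2, and none in the lists numbered 1.

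The promoters below are those of MEG3, GRB10, MEST and PLAGL1. MEG3 had no peak over its start in a covered cluster, and GRB10 had peaks only upstream within 25 kb. MEST and PLAGL1 lay in bare chromatin. The promoters are RefSeq sequences on GRCh38.p14, from 250 bases before to 50 after a start, read 5′ to 3′ on the gene's own strand. Each gene has several listed promoters, and the one at the 5′ end of the gene is shown. Whether it is an imprinted promoter was not tested. These positions belong to GRCh38.p14 and cannot be set beside the GRCh37 peak positions above. The windows are chr14:100825858-100826157 (plus strand) for MEG3, chr7:50793404-50793703 (minus strand) for GRB10, chr7:130485925-130486224 (plus strand) for MEST and chr6:144064550-144064849 (minus strand) for PLAGL1. Capitals mark every CG pair, the letters at which DNA methylation is laid down.
MEG3: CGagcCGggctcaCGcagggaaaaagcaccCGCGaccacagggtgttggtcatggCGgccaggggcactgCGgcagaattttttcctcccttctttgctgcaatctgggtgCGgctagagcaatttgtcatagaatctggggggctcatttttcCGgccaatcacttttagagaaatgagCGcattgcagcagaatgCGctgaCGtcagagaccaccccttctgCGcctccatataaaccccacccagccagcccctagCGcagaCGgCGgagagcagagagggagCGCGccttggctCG
GRB10: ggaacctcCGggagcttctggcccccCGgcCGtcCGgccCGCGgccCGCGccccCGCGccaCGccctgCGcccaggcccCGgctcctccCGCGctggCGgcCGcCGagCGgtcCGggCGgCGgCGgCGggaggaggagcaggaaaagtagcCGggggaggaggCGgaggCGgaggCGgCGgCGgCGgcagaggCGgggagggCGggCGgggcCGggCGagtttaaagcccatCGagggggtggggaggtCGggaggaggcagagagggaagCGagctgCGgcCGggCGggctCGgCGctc
MEST: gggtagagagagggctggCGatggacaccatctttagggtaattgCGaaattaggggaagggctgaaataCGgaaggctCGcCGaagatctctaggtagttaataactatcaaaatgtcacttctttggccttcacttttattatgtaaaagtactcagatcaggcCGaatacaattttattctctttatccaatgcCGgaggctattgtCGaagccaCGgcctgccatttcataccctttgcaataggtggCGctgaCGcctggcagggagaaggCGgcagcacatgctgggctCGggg
PLAGL1: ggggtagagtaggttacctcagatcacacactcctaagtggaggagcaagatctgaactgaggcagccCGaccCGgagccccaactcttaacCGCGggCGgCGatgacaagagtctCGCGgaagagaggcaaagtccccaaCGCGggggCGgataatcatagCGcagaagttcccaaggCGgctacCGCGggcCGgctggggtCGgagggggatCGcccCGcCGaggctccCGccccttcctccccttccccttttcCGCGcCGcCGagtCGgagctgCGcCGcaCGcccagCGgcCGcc

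CG pairs differed several fold among these sequences. GRB10 held 44, MEG3 19, MEST 13 and PLAGL1 31, against a median of 14 over the 35116 RefSeq promoters of the same table. At least as many were held by 4.19% of all promoters for GRB10, 20.7% for PLAGL1, 42.9% for MEG3 and 51.7% for MEST. GRB10, PLAGL1 and MEG3 were thus above that median, and MEST was close to it. ZFP57, the zinc finger protein that keeps methylation at imprinted control regions, recognises the letters TGCCGC when methylated. On either strand, with overlaps allowed, that hexamer occurred 1 time in MEG3, 1 time in GRB10, 1 time in MEST and 0 times in PLAGL1; 16.7% of all promoters held it. Such a match describes these letters in this window and is no evidence of binding.

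Setting AC220 against DMSO, no gene of the 8 passed the rule for a difference, a covered share at least 10 points apart in the same direction in both replicate numbers. Within 25 kb 0 of 8 were lower with AC220, beside 2.9% of 50 kb tiles, and 0 of 8 were higher, beside 0.0395%. Within 5 kb 0 of 8 were lower, beside 3.74% of 10 kb tiles, and 0 of 8 were higher, beside 0.563%. Exact permutation p-values for the single genes lay between 0.333 and 1, and MEG3 within 5 kb was the one at 0.333. With 2 libraries a treatment no difference of any size could reach a smaller p, and a p of 1 does not show that a gene was alike in both treatments.

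By any amount within 25 kb, 0 of 8 genes were lower with AC220 in both numbers, beside 23.1% of tiles, and 2 of 8 were higher (H19 and MEG3), beside 5.54%. Most tiles are uncovered, so a closer background is the 14192 tiles with a mean covered share of at least 20%, a limit set after seeing the data. Of these, 57.7% were lower in both numbers and 10.5% were higher, and 12% and 0.148% were so by at least 10 points. The genes over the same limit were H19, IGF2, DLK1, MEG3 and GRB10, and among these 5 again 0 were lower and 2 higher by any amount, and 0 by at least 10 points. Such tiles had a median difference of -4.18 points in number 1 and -6.15 points in number 2. In number 2 the differences of MEG3 (13.8 points), H19 (9.58 points) and DLK1 (8.41 points) were above the 95th percentile of these tiles, 8.08 points. In number 1 the differences of those genes, at 3.37, 0.23 and -8.20 points, lay inside the range from the 5th percentile of -19.0 to the 95th of 7.29. Within 5 kb 1 gene was lower in both numbers (H19) and 1 higher (MEG3), beside 10.9% and 3.45% of all 10 kb tiles. With the DMSO lists cut down, strongest peaks kept, to the covered length of the AC220 list of the same number, MEG3 passed the rule as higher within 25 kb, beside 0.519% of all tiles and 2.14% of those with a mean covered share of at least 20%.

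**Figure D4:**
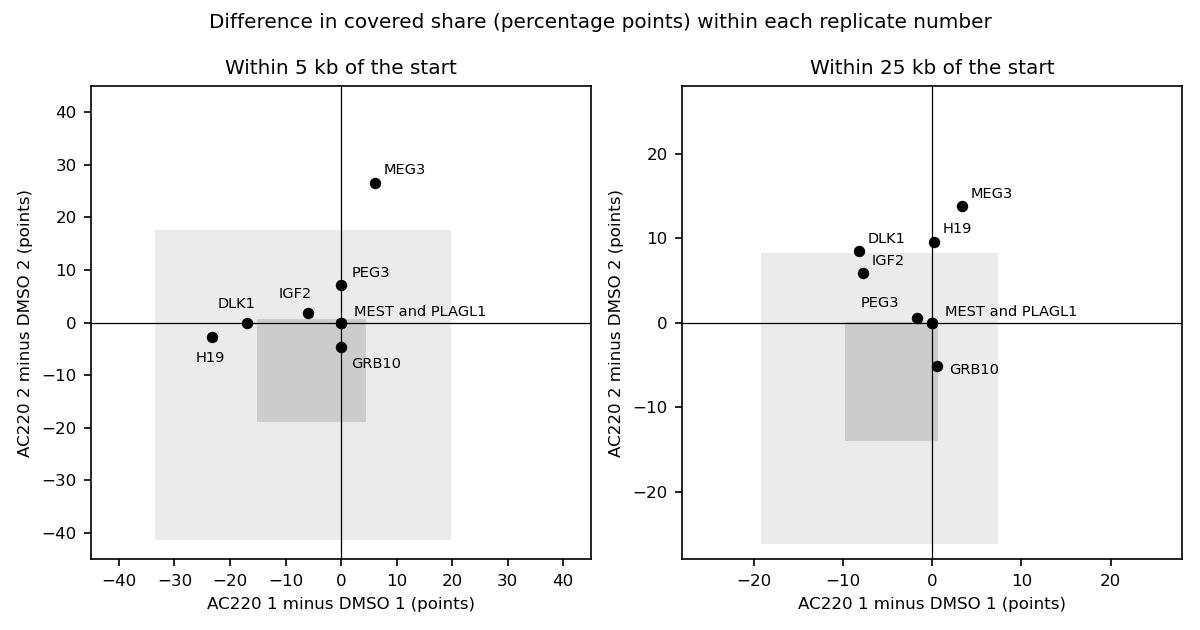
Difference in covered share in percentage points for the 8 genes, AC220 1 minus DMSO 1 on the horizontal axis and AC220 2 minus DMSO 2 on the vertical axis, within 5 kb (left) and 25 kb (right). Light and dark grey boxes span the 5th to 95th and the 25th to 75th percentiles of tiles with a mean covered share of at least 20%. MEG3 lies above both boxes in number 2, at 26.6 points within 5 kb and 13.8 points within 25 kb. Within 5 kb only 3 of the 8 genes reach that mean share themselves, and MEG3 does not, so the boxes there are an unlike background for it.

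Peaks at the 8 genes were compared between the treatments within a replicate number. Of the 31 AC220 1 peaks that touched a 25 kb window, 20 (64.5%) had at least 50% of their length in DMSO 1 peaks, against 52% of that whole list. For AC220 2 it was 24 of 34 in DMSO 2 peaks (70.6%, against 71.3% of the whole list). Over both numbers 44 of 65 AC220 peaks counted as shared, 51 with an overlap of 1 bp and 30 with at least 80% of the peak. In the other direction, 19 of 33 DMSO 1 peaks lay in AC220 1 peaks (57.6%, against 38.5%) and 24 of 25 DMSO 2 peaks lay in AC220 2 peaks (96.0%, against 52.8%). Peaks of the same window are neighbours and not separate observations. The whole lists were not matched to these peaks in width or q, so the shares are not read as a trait of these genes. Counted by bases, 153 kb within 25 kb of the 8 starts were covered in at least 1 library, and 60.2 kb (39.2%) in all 4. IGF2 gave 22.04 kb of the bases covered in all 4, H19 12.04 kb, MEG3 11.2 kb, DLK1 11.1 kb and GRB10 3.87 kb, and the other genes none. Bases covered in both AC220 lists and neither DMSO list came to 2.48 kb, and those in both DMSO lists and neither AC220 list to 0.784 kb. By contrast 19.4 kb were covered in the lists numbered 2 of both treatments and in no list numbered 1, and 0 kb the other way round. More of these bases thus went with the replicate number than with the treatment. The lists numbered 2 are much longer in both treatments, and the same counts were not made over the whole genome. The base counts are therefore not read as a trait of these genes.

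As a comparison, 16 other imprinted genes were placed at starts given to the nearest kb from general knowledge of the GRCh37 map. For 11 of them the distance to a neighbour lay within 2 kb of that on GRCh38.p14, and unless stated only these are described. Among the 8 genes, the distance between H19 and IGF2 differed by 2.7 kb on such a check, more than that limit. Distances from IGF2 to KCNQ1, KCNQ1OT1, CDKN1C and PHLDA2 differed by at most 0.791 kb. The mismatch thus goes with the H19 start, and RefSeq lists the H19 promoter at another start. Within 25 kb, 3 of the 11 (KCNQ1OT1, PHLDA2 and SNURF) had no covered base in any library, beside 2 of the 8. Covered over at least 20% in all 4 libraries were 0 of the 11, beside 4 of the 8. Those 4 are H19 with its neighbour IGF2 and DLK1 with its neighbour MEG3. Of all 16 other genes 2 met this limit, and both were among those left out by spacing. Within 5 kb it was met by 2 of the 11, beside 2 of the 8. The windows of CDKN1C and PHLDA2 overlap at this size, as do those of NDN and MAGEL2. By the rule of 10 points in both numbers, 0 of the 11 differed within 25 kb. Within 5 kb 2 of the 11 were lower with AC220, beside 3.74% of 10 kb tiles and 15.7% of those with a mean covered share of at least 20%. None of the 11 was higher, beside 0.563% and 2.22%. They were PPP1R9A, at 0% and 54.5% with AC220, against 18.5% and 74.99% with DMSO, and MAGEL2, at 0% and 38.2% with AC220, against 10.1% and 53.1% with DMSO. The treatments overlapped at both.

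**Figure D5:**
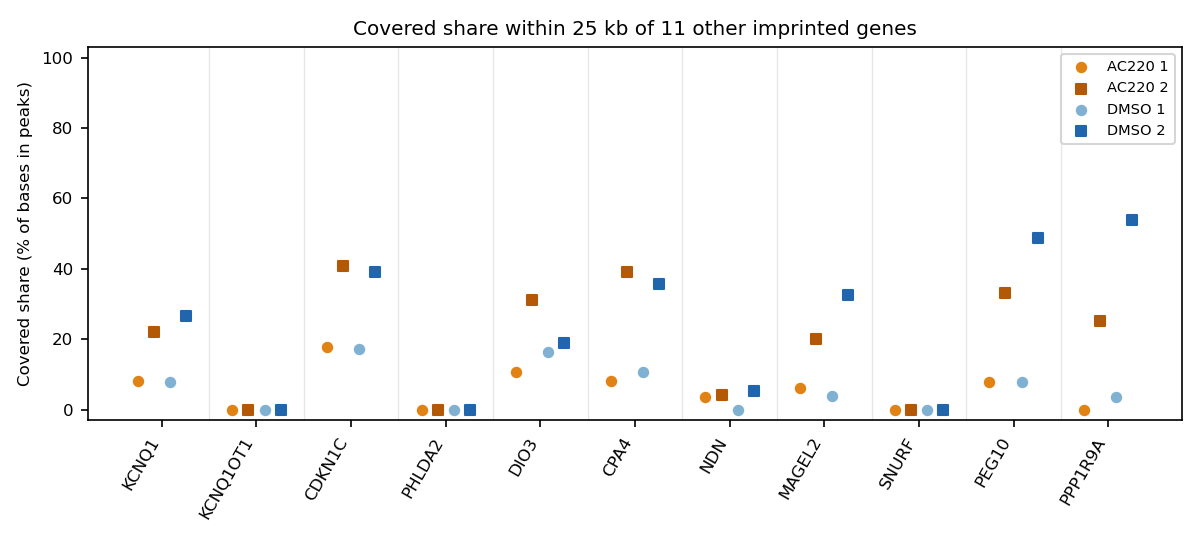
Covered share in percent within 25 kb for the 11 other imprinted genes, 1 point per library in the order AC220 1, AC220 2, DMSO 1 and DMSO 2. At KCNQ1OT1, PHLDA2 and SNURF all 4 points lie at 0%, and no gene has all 4 points at or above 20%.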

How the data were processed

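H3K27me3 chromatin immunoprecipitation libraries of MOLM14 cells were grouped by treatment and number from the sample titles. Per the submitters' processing notes, the tools were BWA 0.7.10-r789 and MACS2 2.1; settings were not listed. Peaks were deposited as 1 list per library, so replicates were not pooled. The authors' fold enrichment of a peak is a ratio to local background in that library. They also deposited p-values and q-values as -log10, and a score equal to 10 times the -log10 q, rounded down, in nearly all peaks. Peaks of the lists reach down to a -log10 q of 1.00. The use of the 4 inputs and of the Drosophila cells in peak calling was not given in the sources used here, and the inputs were not analysed. Nor was a genome build given, and peak ends lie within GRCh37 chromosome lengths (at most 249236554 on chromosome 1, of 249250621). The covered shares do not use fold or q, which were used to rank or filter peaks inside 1 list.

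Covered shares were computed in Python 3.11.15 (pandas 2.3.3, numpy 2.4.6) and tested on simulated peaks. Treatments were compared per gene with a two-sided exact permutation test that runs through all 6 ways to assign 4 libraries, for which 0.333 is the smallest p. A gene counted as different at 10 points or more in the same direction in both numbers. All 8 genes are named; of the other imprinted genes, those with no covered base in any library are named, and the rest of those named were chosen after their values were seen. Genes, lists and tests were chosen with earlier results of these data known. The alternatives were stricter q, trimmed lists, joined peaks, other windows and starts, other minimum differences, a replicate block and leaving out each library. RefSeq promoters were found for 5 of the 8 genes; the entry for H19 lies at another start and is not shown.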

Additional observations from a re-analysis of the deposited data

How the results depend on the processing

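Covered bases depend on where each list ends, and depth is unknown because the lists hold no counts. Counts of genes lower or higher by 10 points in both numbers stayed at 0 of 8 under most alternatives. Within 5 kb the count higher became 1 with the start moved 1 kb higher and with a minimum difference of 5 points, which was MEG3 in the second case; leaving out each library gave 0 to 1. Within 25 kb it became 1, again MEG3, with each DMSO list trimmed, and 0 to 1 leaving out each library. The count lower within 5 kb ranged from 0 to 2 leaving out each library, with 2 (H19 and DLK1) without AC220 2 or DMSO 2, since only number 1 was then compared; within 25 kb it stayed at 0. The median share of the 8 genes fell with stricter lists. With a -log10 q of at least 2 it was 3.995% in AC220 2 within 5 kb, and 0% in AC220 1 and 0% in DMSO 1 within 25 kb. With a -log10 q of at least 5 it was 0% in all of these and in AC220 2 and DMSO 2 in both windows, and with all lists trimmed to the shortest it was 0% in AC220 2 and DMSO 2 in both windows. With starts moved 1 kb higher it was 16.5% in DMSO 2 within 5 kb.

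Of 128 recomputed differences of single genes, 20 had the opposite sign, none with an exact p below 0.333. Within 5 kb IGF2 became 4.30 points with a -log10 q of at least 2, 0.135 with at least 5, 8.40 with DMSO lists trimmed and 1.42 with all trimmed. DLK1 became 20.1 with a -log10 q of at least 2 and 41.5 with all lists trimmed. PEG3 became -3.50 with a -log10 q of at least 2 and -0.075 with starts moved lower. Within 25 kb IGF2 became 2.08, 0.064, 5.28 and 7.56 under the same alternatives as within 5 kb, and 0.977 with peaks under 1 kb apart joined. H19 became -4.26 with a -log10 q of at least 2 and -0.493 in windows of 50 kb either side, and DLK1 -3.87 in windows of 10 kb. PEG3 became 0.281 with DMSO lists trimmed, 0.369 with peaks joined and 0.179 in windows of 50 kb, and GRB10 became 0.253 with all lists trimmed. Shared AC220 peaks numbered 44 of 65, and 10 of 19 with a -log10 q of at least 2. The causes were not tested.

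The labels give replicate numbers to both treatments without saying that a number marks a shared culture or day. With the replicate number as a block the difference of MEG3 within 5 kb stayed at 16.3 points and its exact p was 0.5, the smallest that 2 pairs allow.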
